A study of Rattus norvegicus with 18 samples.

Results

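The 10 crystallin genes Cryaa, Cryab, Cryba1, Cryba2, Cryba4, Crybb1, Crybb2, Crybb3, Crygd and Crygs were followed in bulk RNA-seq of rat retina and of RPE/choroid, the retinal pigment epithelium with the vascular layer under it. They were chosen by family membership and found by gene symbol. All 10 were found among the 32285 genes counted in retina, and 9 among the 32552 genes counted in RPE/choroid, where Crygd was not named and was dropped from the tests. The 18 libraries come from female wild-type Fischer344 rats: in each tissue 3 are from young rats of 4 months, 3 from aged rats of 24 months kept on plain water, and 3 from aged rats of 24 months that drank 8-aminoguanine (8-AG, an inhibitor of purine nucleoside phosphorylase) at 5 mg/kg/day for the last 8 weeks. The eyes were opened by taking off cornea, iris and lens, the retina was lifted out, and RPE/choroid was washed from what remained of the eyecup. The labels do not say that the libraries of a group are separate animals, and in RPE/choroid young libraries 1 and 2 share a number with the letters L and R, as do aged libraries 1 and 2, so the p-values measure the spread between libraries only. The 3 libraries of 8-AG retina are labelled total RNA and all others polyA RNA, although the protocol gives poly-A capture for retina.

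Crystallins are the soluble proteins that fill the fibre cells of the lens. The alpha crystallins Cryaa and Cryab are small heat shock proteins that hold damaged proteins in solution, while the beta crystallins (Cryba and Crybb genes) and gamma crystallins (Cryg genes) are structural proteins of another family. Cryab is also made outside the lens, in heart, skeletal muscle and glia, and is induced by stress, so it was kept apart here from the other 9, called lens-type members below. In bulk tissue, more cells of a type and more RNA per cell cannot be told apart.

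The retina libraries held 12283458 to 15644346 counts and the RPE/choroid libraries 28573828 to 48203050. Levels are CPM, the counts of a gene scaled to a common TMM-corrected library total as edgeR's cpm gives them, a correction for differences in RNA composition. Sag, the arrestin of rod photoreceptors, lay at 4353 to 6068 CPM in all retina libraries. It also lay at 60 to 4979 CPM in RPE/choroid, where Rpe65, a visual cycle enzyme of the pigment epithelium, was at 26.7 to 611 CPM, so the RPE/choroid libraries also held retinal RNA in unequal amounts. Of 12 lens structure genes other than crystallins, 11 were found in retina, and their summed level was 136, 273 and 24.0 CPM in the young libraries, 16.5 to 24.5 CPM in the aged ones and 117, 18.0 and 19.9 CPM in the 8-AG ones. Young libraries 1 and 2 and 8-AG library 1 thus stood apart in retina, and the main values of the members that rest on them are also given without them.

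The alpha and beta crystallins and Crygs varied together in retina. Cryaa (ENSRNOG00000047175), the alpha crystallin kept among the lens-type members, was at 1992, 4068 and 77.9 CPM in the young libraries. It was at 0.624, 1.40 and 0.552 CPM in the aged ones and at 1216, 1.71 and 1.60 CPM in the 8-AG ones. Crybb2 (ENSRNOG00000050023), a major beta crystallin of the mature lens, was at 479, 1132 and 26.2 CPM in young, 0.468, 0.510 and 0.276 CPM in aged and 373, 0.244 and 0.868 CPM in 8-AG retina. Both genes were highest in young library 2, then young library 1, then 8-AG library 1, with young library 3 far below these and the other 5 libraries below 2 CPM. Summed over the 9 lens-type members, the level was 3037, 6864 and 155 CPM in young retina, 1.87, 3.06 and 1.73 CPM in aged retina and 1856, 4.15 and 5.21 CPM in 8-AG retina. No aged library reached the lowest young one.

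Cryba1 (ENSRNOG00000008700), an acidic beta crystallin that is also made in astrocytes and pigment epithelium, was at 215, 724 and 21.2 CPM in young retina and had 1 count over all 3 aged libraries. In 8-AG library 1 it was at 75.4 CPM and in the others at 0.244 and 0.468 CPM. Cryba2 (ENSRNOG00000017996) was at 85.9, 201 and 4.93 CPM in young retina and had no count in aged retina. Cryba4 (ENSRNOG00000049770) was at 76.4, 225 and 8.04 CPM in young retina and at up to 0.319 CPM in aged retina. The basic beta crystallins Crybb1 (ENSRNOG00000047653) and Crybb3 (ENSRNOG00000047673) reached 173 and 177 CPM in young library 2, and at most 0.546 and 0.0637 CPM in an aged library. Crygs (ENSRNOG00000038355), the gamma-related crystallin kept through adult life, was at 49.8, 162 and 5.88 CPM in young retina, at no more than 0.0691 CPM in aged retina, and at 36.4, 0 and 0.468 CPM in 8-AG retina. In all 8 of these alpha, beta and Crygs genes the order was young library 2, young library 1, 8-AG library 1 and young library 3, with the other 5 libraries below.

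**Figure D1:**
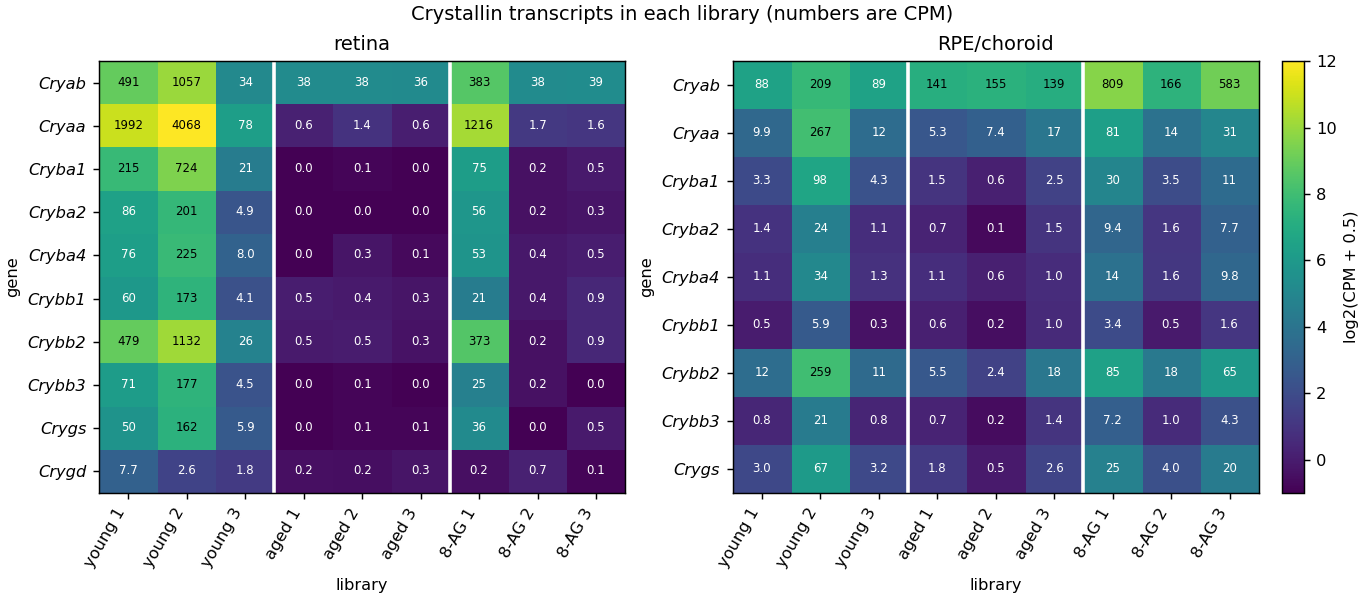
Level of each crystallin gene in each library of retina (left) and RPE/choroid (right); the colour is log2(CPM + 0.5) and the numbers are CPM. In retina the lens-type genes are high in young 1, young 2 and 8-AG 1, with Cryaa at 1992, 4068 and 1216 CPM, while Cryab has a level of 34.2 to 39.1 CPM in the other 6 libraries and Crygd is highest in young 1.

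The proportions of the alpha and beta genes were not the same in the young libraries and 8-AG library 1. Young library 3 is among these, although its lens structure genes summed to 24.0 CPM, within the aged range of 16.5 to 24.5 CPM. Crybb2 per Cryaa, a ratio of CPM whose gene lengths cancel between libraries, was 0.240, 0.278 and 0.337 in young libraries 1, 2 and 3 and 0.306 in 8-AG library 1. Cryba1 per Cryaa was 0.108, 0.178 and 0.272 in the young libraries and 0.0620 in 8-AG library 1. Crybb1 per Cryaa was 0.0301, 0.0425 and 0.0529 in the young libraries against 0.0176 in 8-AG library 1. For Cryba1 and Crybb1, 8-AG library 1 therefore had less transcript per Cryaa than each young library, while for Crybb2 it lay within the young range, as it did for Crygs per Cryaa, at 0.030 against 0.0250 to 0.0755. With 1 treated library that holds these transcripts, the differences have no replicate check.

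The gamma crystallin Crygd did not follow the other lens-type genes. Crygd (ENSRNOG00000032219), a structural protein of the lens fibre core, was at 7.70, 2.56 and 1.82 CPM in young retina, at 0.234, 0.191 and 0.345 CPM in aged retina and at 0.232, 0.652 and 0.0668 CPM in 8-AG retina. It was highest in young library 1, where Cryaa was lower than in young library 2, and in 8-AG library 1, which held 1216 CPM of Cryaa, it had 3 counts. The gamma genes Crygb and Crygc were also highest in young library 1 and at or near 0 outside young retina, while Cryga was present in all 3 groups. Crygb (ENSRNOG00000032926) had 151, 48 and 23 counts in young retina and 0 in all 6 aged and 8-AG libraries, and Crygc (ENSRNOG00000014950) had 73, 23 and 22 counts in young retina, 0 in aged retina and 1 in 8-AG library 1. Cryga was at 1.31, 1.05 and 1.0 CPM in young, 0.468 to 1.34 CPM in aged and 0.326 to 0.935 CPM in 8-AG retina, with overlapping groups and 4 to 21 counts a library. Against the floor of 3 counts over the aged group, Crygb was at least 77.4-fold and Crygc at least 41.2-fold higher in young retina. Summed, Crygb, Crygc and Crygd made 0.00822, 0.00115 and 0.0315 CPM per CPM of lens-type members in the young libraries and 0.000166 in 8-AG library 1. The gamma genes are near copies of each other, so reads could have been shared among them in counting, and each gene's own count is more doubtful than the total of the 3.

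Promoters of alpha, beta and gamma genes are shown here because the gamma genes share a run of letters. The sequences are those of RefSeq on the GRCr8 assembly, which is not the Rnor_6.0 build named for the counts, and each gives the 120 bases before the annotated start of transcription, 5′ to 3′ on the gene's strand. Of the 10 members, 9 had a promoter in that table; Cryab had none. Capitals mark the letters TGCTGAC, the core bound by Maf factors in lens promoters, the letters CCTTTTGTG, and the TATA-type run TATATA, each searched on both strands and free to overlap.
Cryaa (chr20:9784791-9784910, plus strand, the more upstream of 2 starts): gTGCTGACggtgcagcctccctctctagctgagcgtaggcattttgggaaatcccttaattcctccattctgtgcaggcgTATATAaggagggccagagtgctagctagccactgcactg
Cryba1 (chr10:63112818-63112937, minus strand): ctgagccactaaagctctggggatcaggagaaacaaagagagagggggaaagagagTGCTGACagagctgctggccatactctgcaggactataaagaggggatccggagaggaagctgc
Crygd (chr9:73937410-73937529, minus strand): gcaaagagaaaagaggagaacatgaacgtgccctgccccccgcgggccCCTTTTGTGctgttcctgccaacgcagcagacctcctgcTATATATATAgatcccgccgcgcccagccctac
Crygb (chr9:73957265-73957384, minus strand): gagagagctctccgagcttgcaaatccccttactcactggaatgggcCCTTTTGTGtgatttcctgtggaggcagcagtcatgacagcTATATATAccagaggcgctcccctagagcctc
Crygc (chr9:73947368-73947487, minus strand, the more upstream of 2 starts): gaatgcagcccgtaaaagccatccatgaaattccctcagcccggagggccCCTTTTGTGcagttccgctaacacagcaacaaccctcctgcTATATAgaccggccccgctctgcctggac
The run CCTTTTGTG, picked after these sequences were read, starts 72, 73 and 70 bases before the start of Crygd, Crygb and Crygc. Within 250 bases before the start it is in 0.335% of the 33469 promoters of the table and in 1 of the 9 members with a promoter, Crygd. Outside the members it is also in Cryga, which was present in all 3 groups of retina, and in Cryge and Crygf. The run is therefore not limited to the gamma genes that were near 0 outside young retina. TGCTGAC is in 3.53% of all promoters and in 3 of the 9 members, Cryaa, Cryba1 and Cryba4, but not in Crygd, Crygb or Crygc. It is also in Cryga, another gamma gene, so it does not part the gamma genes from the others. TATATA is in 5.45% of all promoters and in Cryaa and Crygd among the members. These are matches of letters and no measurement of binding.

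Cryab had a floor of expression in retina that the lens-type genes lacked. Cryab (ENSRNOG00000010524) was at 491, 1057 and 34.2 CPM in the young libraries, at 37.8, 37.5 and 36.3 CPM in the aged ones and at 383, 38.4 and 39.1 CPM in the 8-AG ones. In young libraries 1 and 2 and 8-AG library 1, where the lens-type genes were high, Cryab was also high, and its ratio to their sum was 0.162, 0.154 and 0.207. In the other 6 libraries it lay between 34.2 and 39.1 CPM, although the lens-type sum ran from 1.73 to 155 CPM among them. The aged level was 37.2 ± 0.831 CPM (SD, n = 3).

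**Figure D2:**
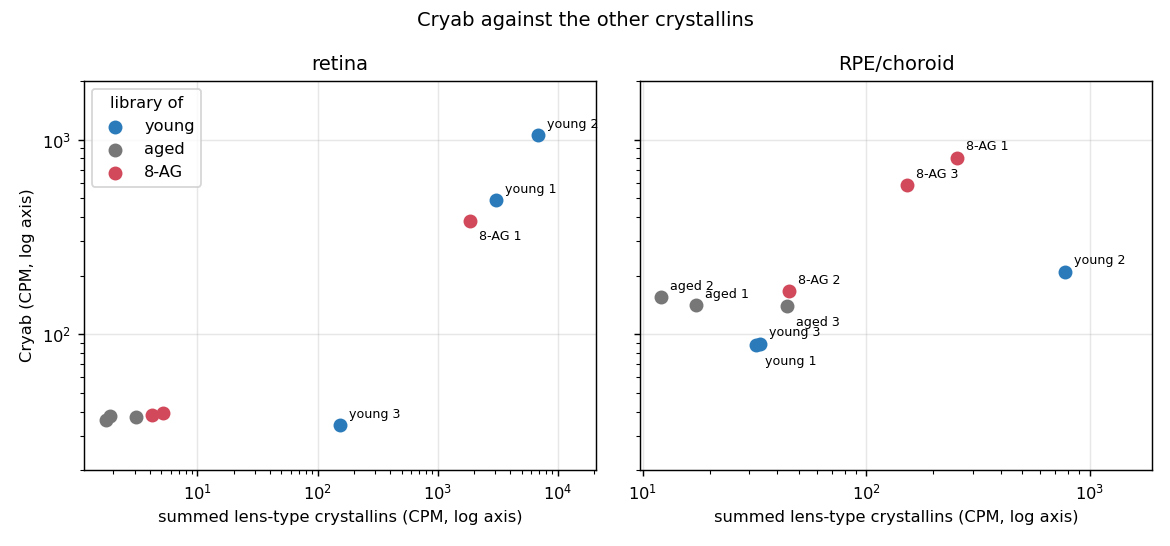
Cryab against the summed lens-type crystallins, both in CPM on log axes, 1 point per library coloured by group, for retina (left) and RPE/choroid (right). In retina 6 libraries lie at 34.2 to 39.1 CPM of Cryab and 3 rise with the lens-type sum; in RPE/choroid, 8-AG 1 and 8-AG 3 have 809 and 583 CPM of Cryab, above young 2 with 209 CPM, which has the largest lens-type sum.

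Aged retina was compared with young retina to ask what aging changes. Each comparison was fitted on its own 6 libraries with edgeR's quasi-likelihood F-test over all genes that passed its expression filter. A gene was called either at a Benjamini-Hochberg adjusted p under 0.05 or by the study's rule, a fold over 1.5 with an unadjusted P under 0.05. All 10 members passed the filter and all 10 had lower levels in aged retina. By edgeR's adjusted p, 1 of 10 fell, Crygd, beside 7.26% of the 14588 genes tested. By the rule of fold and P, 9 of 10 fell, all but Cryba2, beside 2.39% of genes. In the 9 lens-type members every aged library was below every young one, beside 17.2% of genes, and in Cryab the groups overlapped. The lens-type members passed the expression filter through the young libraries only, having 0 to 38 counts in all over the aged ones, so a lower aged level was in part fixed by the filter and these counts are no support. With at least 10 counts required in every library, Cryab alone was tested, and it was past the rule. The median log2 fold change of the lens-type members was -10.35, the same with Cryba2 at its bound, against a median of 0.0019 over all genes.

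Crygd had a log2 fold change of -3.92 (SE 0.73, edgeR adjusted p = 0.012), and without young libraries 1 and 2 of -2.79. With the summed lens structure genes as a covariate it was -3.12 (edgeR adjusted p = 0.13), past the call no longer. Cryaa had one of -11.17 (SE 2.30, adjusted p = 0.051) and Crybb2 one of -10.32 (SE 2.31, adjusted p = 0.062). Cryba2, with no count in aged retina, was at least 1345-fold higher in young retina. The ratio of young to aged levels was 13320 for Cryba1, 3502 for Crybb3 and 1510 for Crygs, with 95% counting intervals of 2390 to 526161, 628 to 138350 and 418 to 12476 that cover counting error only. Such ratios are set by young libraries 1 and 2. With both left out, young library 3 alone against the aged libraries gave a median of -6.45 for the lens-type members. With 1 young library its own spread is not known, so only the effect size is given. The count at an adjusted p under 0.05 moved with the fit: it was 10 with DESeq2 and with robust=FALSE, 9 without young library 3 and 0 without any 1 of the aged libraries, where the count by fold and P was 3 or 4.

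Cryab's lower level in aged retina depended on the lens-rich libraries. Its log2 fold change was -3.83 (SE 1.34, unadjusted P = 0.044 and adjusted p = 0.16 by edgeR). Without young libraries 1 and 2 it was 0.12, and with the summed lens structure genes as a covariate it was 0.40 (SE 0.37, edgeR adjusted p = 0.635). Both alternatives were chosen after seeing the data. Of the 10 members, Cryab alone changed direction in these 2 fits.

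8-AG-treated retina was compared with untreated aged retina to ask what treatment changes at the same age. Only Cryaa and Cryab passed the filter. The remaining 8 did not, and apart from Crygd each had its highest level in 8-AG library 1 and at most 13 counts in any other library of the comparison. None of the 10 members was called by adjusted p, beside 0.0205% of the 14631 genes tested that were higher, or by the rule of fold and P, beside 0.526% of genes. Over all genes 537 had an unadjusted P under 0.05 with edgeR, and DESeq2 called 0 members as well. Cryaa had a log2 fold change of 8.83 (SE 3.83, edgeR adjusted p = 0.996) and Cryab one of 2.04 (SE 1.16, edgeR adjusted p = 0.996). In both, every 8-AG library was above every aged one, beside 4.81% of the genes tested. The same held in Cryba1, Cryba2 and Cryba4, but these were not tested, so that share does not cover them. Without 8-AG library 1 the value of Cryaa was 0.91 (SE 0.44, edgeR adjusted p = 0.77) and that of Cryab 0.06 (SE 0.09, edgeR adjusted p = 0.94). In 8-AG library 1 the 5 summed cornea and surface epithelium markers were also highest, at 47.7 CPM against 20.9 and 24.6 CPM in the other 8-AG libraries and 4.01 to 6.25 CPM in the aged ones, and their part in the result was not tested.

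Between 8-AG-treated and young retina, all 10 members were tested and all 10 had lower levels after treatment. Crygd was the 1 of 10 that fell by edgeR's adjusted p, beside 7.1% of the 14542 genes tested, and the 1 of 10 that fell by the rule of fold and P, beside 2.08% of genes. Its log2 fold change was -3.69 (SE 0.87, edgeR adjusted p = 0.040), and its groups did not overlap, beside 17.7% of genes. With 12 counts over the 3 8-AG libraries it passed the filter through the young libraries only, so a lower treated level was in part fixed by the filter and these counts are no support. Without young libraries 1 and 2 and 8-AG library 1 its value was -2.40. With the lens structure covariate its value was -3.32 (edgeR adjusted p = 0.13), while Crybb1 was called in that fit, at -1.23 (SE 0.20, edgeR adjusted p = 0.0047). No member was called by adjusted p without young library 2 or without any 1 of the 8-AG libraries. For Cryaa the log2 fold change was -2.33 (SE 2.87), for Crybb2 -2.13 (SE 2.59) and for Cryab -1.78 (SE 1.66), none of them past either call with all libraries in the fit. Without 8-AG library 1 alone, Cryaa was at -10.27 (unadjusted P = 0.038 and adjusted p = 0.13 by edgeR) and Crybb2 at -9.84 (unadjusted P = 0.047 and adjusted p = 0.16 by edgeR). Leaving out young libraries 1 and 2 and 8-AG library 1 leaves 1 young library, so only effect sizes are given. Cryaa was then at -5.55, Crybb2 at -5.47 and the lens-type median at -4.49. This comparison shares its young and its treated libraries with the other comparisons.

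**Figure D3:**
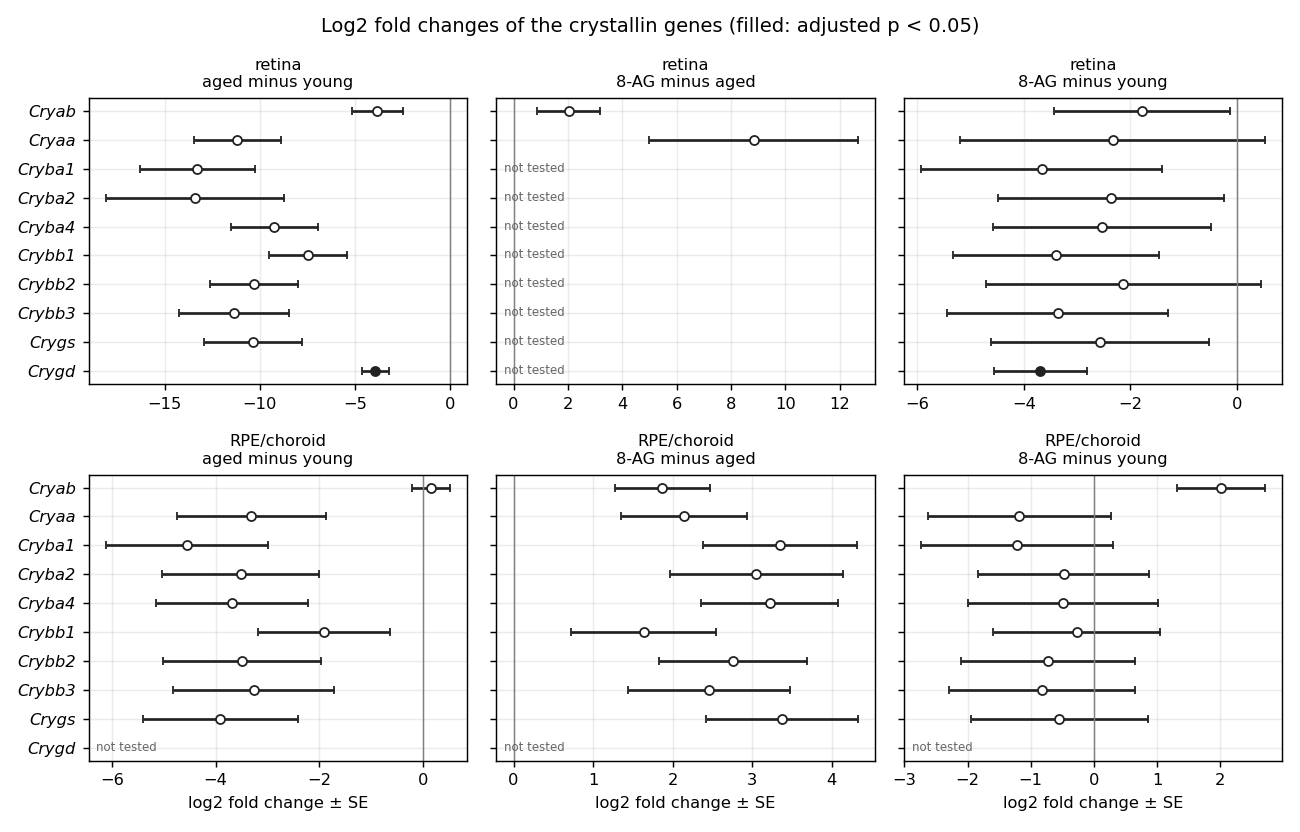
Log2 fold change with its standard error (bars) of each member in the 3 comparisons of retina (top) and of RPE/choroid (bottom), from edgeR; filled points have an adjusted p under 0.05, and members that missed the expression filter are marked as not tested. The scales differ between panels. Crygd, at -3.92 and -3.69, is the only filled point, and Cryab alone is on the positive side in RPE/choroid for 8-AG minus young.

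Other genes of the lens moved with the crystallins in retina. Of the 12 lens structure genes, 5 passed the filter in aged against young retina, all lower (median log2 fold change -2.91), and 2 fell at an edgeR adjusted p under 0.05, beside 7.26% of genes. These were Bfsp1, a beaded filament protein of lens fibres (-2.91, SE 0.54, edgeR adjusted p = 0.012), and Lgsn, an enzyme-like protein of the lens (-3.92, SE 0.81, edgeR adjusted p = 0.015). Genes low in aged retina can pass the filter through the young libraries only. A lower aged level may thus be in part fixed by the filter, and these counts are no support. Of 9 transcription factors that act on crystallin genes, 8 were found, 6 were tested and none had an adjusted p under 0.05. Pax6 and Prox1, which retinal neurons also make, were at 310 to 356 CPM and 140 to 240 CPM over all 9 libraries. The lens-rich libraries did not stand apart in this pair. By the rule of fold and P, 1 of the 6 fell, Maf, a factor of lens fibres named after its values were seen (-0.99, SE 0.35, edgeR adjusted p = 0.12), which was highest in young libraries 1 and 2 and 8-AG library 1, at 11.9, 18.7 and 10.6 CPM, against 5.21 to 7.21 CPM in the others. The lens epithelium factor Foxe3, which was not tested there, was at 5.47 and 7.60 CPM in young libraries 1 and 2, at 4.71 CPM in 8-AG library 1 and had 0 counts in the other 6.

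Among the genes whose profile over the 9 retina libraries was nearest to that of the summed lens-type members, by the root mean square difference of centred log2(CPM + 0.5), were Grifin (2.34), Lim2 (2.78), Col4a1 (2.80) and Wnt7b (2.81), where the summed profile spans 11.59. Grifin is a galectin-like protein and Lim2 a membrane protein of lens fibres, and Col4a1 is a collagen of basement membranes. For Cryab, whose profile spans 4.93, the nearest were Vit (0.23), Foxe3 (0.25), Lim2 (0.33), Gja3 (0.39) and Col4a2 (0.40). Vit, the gene of the matrix protein vitrin, was at 9.40 and 13.6 CPM in young libraries 1 and 2, at 6.41 CPM in 8-AG library 1 and at no more than 0.326 CPM elsewhere. The likeness is over 9 libraries and is carried by the same 3 of them.

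In RPE/choroid the lens-type members were present at lower levels and with other libraries on top. Cryaa was at 9.94, 267 and 11.5 CPM in the young libraries, at 5.26, 7.39 and 16.7 CPM in the aged ones and at 80.6, 14.3 and 31.2 CPM in the 8-AG ones. Crybb2 was at 12.1, 259 and 10.9 CPM in young, 5.55, 2.42 and 17.6 CPM in aged and 85.3, 18.5 and 65.3 CPM in 8-AG RPE/choroid. Young library 2 was highest in each of the 8 lens-type members and 8-AG libraries 1 and 3 came next. Summed over the 8, the level was 32.2, 775 and 33.4 CPM in young, 17.3, 12.0 and 44.3 CPM in aged and 256, 45.1 and 151 CPM in 8-AG RPE/choroid. Cryba1 ran from 0.618 CPM in aged library 2 to 98.1 CPM in young library 2, and Crygs from 0.471 to 67.4 CPM in the same libraries. Crygb had 7, 633 and 35 counts in young, none in aged and 1, 1 and 9 in 8-AG RPE/choroid, and Crygc had 2, 202 and 12 counts in young RPE/choroid and 0 in the 6 other libraries. Crygd, under its retina identifier, did not follow them: it had 4, 23 and 4 counts in young, 9, 0 and 20 in aged and 24, 0 and 1 in 8-AG RPE/choroid, the most being in 8-AG library 1.

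The composition of the lens-type RNA in RPE/choroid also differed between libraries. Crybb2 per Cryaa was 0.971 in young library 2, 1.1 in 8-AG library 1 and 2.09 in 8-AG library 3. Crygs per Cryaa was 0.253, 0.315 and 0.657 in the same libraries. In retina the highest Crybb2 per Cryaa among libraries over 100 CPM of lens-type members was 0.337, but retina and RPE/choroid were counted and prepared in different ways, and the tissues were not tested against each other in level.

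Between aged and young RPE/choroid, 9 members were tested. None had an edgeR adjusted p under 0.05, beside 0% of the 16047 genes tested, of which 341 had an unadjusted P under 0.05, and DESeq2 called 0 members too. By the rule of fold and P, 3 of 9 fell, Cryba1, Cryba4 and Crygs, beside 0.636% of genes. In the same 3 every aged library was below every young one, beside 4.13% of genes. Cryba1 had a log2 fold change of -4.56 (SE 1.57, unadjusted P = 0.027 by edgeR), Crygs one of -3.91 (SE 1.5) and Cryba4 one of -3.69 (SE 1.47). The median of the 8 lens-type members was -3.50 against 0.018 over all genes. It was -0.43 without young library 2, which leaves 1 of 9 members past the rule, and that 1 is Cryab. The count was 6 without young library 1, 7 without young library 3, 0 without any 1 of the aged libraries and 1 with the libraries that share a number summed.

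Cryab in RPE/choroid was at 88.1, 209 and 89.3 CPM in the young libraries, at 141, 155 and 139 CPM in the aged ones and at 809, 166 and 583 CPM in the 8-AG ones. Aged libraries lay close together, at 145 ± 8.74 CPM (SD, n = 3), above young libraries 1 and 3 and below young library 2. The log2 fold change between aged and young was 0.16 (SE 0.36, unadjusted P = 0.67 by edgeR). Without young library 2, which also held the most lens-type RNA, it was 0.69 (SE 0.14, unadjusted P = 0.0037 and adjusted p = 1.0 by edgeR). With the summed lens structure genes as a covariate it was 0.55 (SE 0.32). That score rests mostly on Birc7, which at 4.57 to 111 CPM was the most abundant lens structure gene in all but 2 of these libraries.

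Between 8-AG-treated and aged RPE/choroid, all 9 members tested had higher levels after treatment. By edgeR's adjusted p 0 of 9 rose, beside 0% of the 16257 genes tested, of which 274 had an unadjusted P under 0.05, while DESeq2 called 3 of 9. By the rule of fold and P, 7 of 9 rose, all but Crybb1 and Crybb3, beside 1.24% of genes. In 6 of 9 every 8-AG library was above every aged one, beside 2.1% of genes. The median log2 fold change of the lens-type members was 2.90, against 0.011 over all genes, with the largest values in Crygs (3.37, SE 0.95), Cryba1 (3.35, SE 0.97) and Cryba4 (3.22, SE 0.86). Cryab had a log2 fold change of 1.87 (SE 0.60, unadjusted P = 0.022 and adjusted p = 1.0 by edgeR). Without 8-AG library 1 the count by the rule was 4 of 9 and the value of Cryab was 1.37 (SE 0.52), and without 8-AG library 3 they were 3 of 9 and 1.75 (SE 0.69). Leaving out aged library 1 gave a count of 2 and leaving out aged library 2 gave 3. Cryab did not pass the rule without 8-AG library 3 or without any 1 of the aged libraries, the last at values of 1.83 to 1.92. With aged libraries 1 and 2, which share a number, summed into 1, the count was 3 of 9 and Cryab was at 1.89 (unadjusted P = 0.062 by edgeR).

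Between 8-AG-treated and young RPE/choroid, Cryab and the lens-type members lay on opposite sides of 0. Cryab was higher after treatment, with a log2 fold change of 2.02 (SE 0.70, unadjusted P = 0.030 and adjusted p = 1.0 by edgeR), and was the 1 of 9 members past the rule, beside 1.71% of the genes tested. No member had an edgeR adjusted p under 0.05, beside 0% of 16215 genes, of which 341 had an unadjusted P under 0.05, and DESeq2 called 0 members. The 8 lens-type members ranged from -1.22 to -0.27 with a median of -0.64, none past the rule. That direction rests on young library 2: without it the median was 2.33. Cryab was 2.58 without young library 2 and 1.55 without 8-AG library 1, and it did not pass the rule without 8-AG library 1, 8-AG library 3, young library 1 or young library 3 (unadjusted P of 0.066, 0.070, 0.095 and 0.091 by edgeR), or with young libraries 1 and 2 summed (unadjusted P = 0.055 by edgeR).

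RNA of other tissues moved with Cryab in treated RPE/choroid. Of 9 striated muscle markers 6 were found, and their summed level was 15.5, 3550 and 26.6 CPM in young, 2263, 53.8 and 22.4 CPM in aged and 36450, 1747 and 44.7 CPM in 8-AG libraries. In 8-AG library 1 the skeletal muscle actin Acta1 reached 12614 CPM and the muscle creatine kinase Ckm 10850 CPM, while Pmel, a melanosome protein of pigment cells, was at 323 CPM against 3714 to 9434 CPM in the other 8 libraries. Of 5 cornea and surface epithelium markers 4 were found, and they summed to 32.5 to 58.1 CPM in the 6 young and aged libraries and to 1021, 62.5 and 264 CPM in the 8-AG ones. The cornea keratin Krt12 was at 125 CPM in 8-AG library 3 and at no more than 1.89 CPM in the others. Cryab was thus highest in the pair of libraries with the most surface epithelium RNA, of which 1 was also rich in striated muscle RNA and 1 was not. The same pair had the most smooth muscle and pericyte RNA, with 5 markers summing to 1872 and 2515 CPM against 606 to 1439 CPM in the other 7 libraries, and the part of these cells in the result was not tested. The rod gene Sag was also highest in 8-AG library 1, at 4979 CPM against 60 to 2084 CPM in the other 8 libraries, while 8-AG library 3 had 85.6 CPM, and the part of retinal RNA was not tested either.

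With each of these scores as a covariate, chosen after seeing the data, the log2 fold change of Cryab between 8-AG and aged RPE/choroid was 1.74 (SE 0.70) for striated muscle, 1.86 (SE 0.59) for lens structure genes and 0.12 (SE 0.50) for surface epithelium. The lens-type median was 2.88, 3.06 and 0.79 in the same order. The lens structure score, mostly Birc7 as given above, was lowest in 8-AG library 1, at 48.5 CPM. The lens-type members summed to 256 CPM there, so the score did not follow them in that library. The fit with this score therefore cannot decide what part lens RNA has. The surface epithelium score itself was higher in every 8-AG library than in every aged one, so a change with treatment and a change with this score cannot be told apart.

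**Figure D4:**
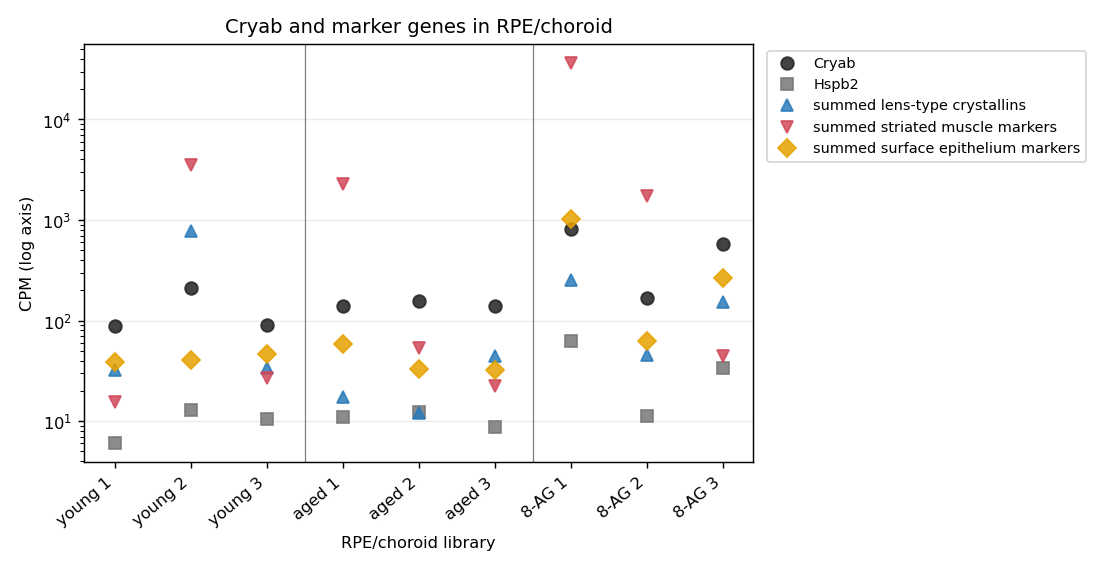
Cryab, its genomic neighbour Hspb2, the summed lens-type crystallins, the summed striated muscle markers and the summed cornea and surface epithelium markers in the 9 RPE/choroid libraries, in CPM on a log axis. Cryab is highest in 8-AG 1 (809 CPM) and 8-AG 3 (583 CPM), where the surface epithelium markers sum to 1021 and 264 CPM, and the muscle markers peak in 8-AG 1 but not in 8-AG 3.

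The gene with the profile nearest to Cryab over the 9 RPE/choroid libraries was Hspb2, the small heat shock protein gene that lies directly beside Cryab in the genome and is made mainly in muscle (RefSeq, GRCr8, for the position). Its root mean square difference from Cryab was 0.29, where the profile of Cryab spans 3.19, and Tcea3 (0.36), Zfp185 (0.39) and Acsm2 (0.39) were among those that came next. Hspb2 was at 6.0, 13.0 and 10.4 CPM in young, 11.0, 12.2 and 8.70 CPM in aged and 62.8, 11.2 and 33.5 CPM in 8-AG RPE/choroid, with 8.59 to 17.4 CPM of Cryab per CPM of Hspb2. In retina that ratio ran from 48.8 to 1655, with Hspb2 at 0.135 to 0.802 CPM. Whether counting used strand is not given in the sources used here, so how reads from the shared neighbourhood of the pair were divided is not known. For the lens-type sum, which spans 5.95, the nearest in RPE/choroid were Lgsn (0.78), Mip (0.84), Grifin (0.90), Lim2 (0.93) and Car3 (1.15), the first 4 of them lens genes and the last a muscle carbonic anhydrase.

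The small heat shock proteins without alpha crystallins were compared because Cryab belongs to their family. In 8-AG against aged RPE/choroid all 6 were tested and higher, the median log2 fold change being 1.83, and 2 of 6 rose by the rule of fold and P, beside 1.24% of genes, Hspb2 (1.79, SE 0.63) and Hspb8 (1.69, SE 0.51), the latter named after its values were seen. Hspb6, a muscle small heat shock protein, reached 2295 CPM in 8-AG library 1 against 144 and 168 CPM in the other 8-AG libraries. Hspb1, the widely made and stress-induced member, was at 0.11 (SE 0.32). In 8-AG against aged retina 3 of the 6 passed the filter, all with higher levels (median 0.06) and none called. In aged against young retina, where 3 of 6 were also tested, Hspb1 rose with age from 0.675 to 1.69 CPM in young to 4.91 to 8.41 CPM in aged libraries (log2 fold change 2.47, SE 0.35, edgeR adjusted p = 0.0020), and Hspb6 fell (-0.35, SE 0.07, adjusted p = 0.0093).

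Stress and glial genes were read in the same retina comparisons. Of 11 inducible cytosolic chaperones tested in aged against young retina, 1 rose and 1 fell by edgeR's adjusted p, beside 7.29% of genes that rose and 7.26% that fell: Bag3, a co-chaperone that binds small heat shock proteins (0.90, SE 0.15, adjusted p = 0.0039), and Hspa1a, the inducible Hsp70 (-0.76, SE 0.08, adjusted p = 3.1e-04). All 7 gliosis genes tested rose, among them Gfap (3.52, SE 0.40, adjusted p = 0.0087), the filament of reactive glia, and Socs3 (3.75, SE 0.43, adjusted p = 7.4e-04), a brake on cytokine signalling. Of the 8 Mueller glia genes, 2 rose and 2 fell. In 8-AG against aged retina none of these 3 lists had a gene with an edgeR adjusted p under 0.05, and 2 genes, both chaperones, had an unadjusted P under 0.05, as did 537 of all 14631 genes tested.

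The aging change and the 8-AG change were compared between the tissues with an interaction term in edgeR. None of the 9 members had an adjusted p under 0.05 for the difference in the aging change, beside 0.161% of the 16792 genes tested, and none for the 8-AG change, beside 0% of 16915 genes. Unadjusted P was under 0.05 for 1386 and 413 of those genes and for 9 of 9 and 1 of 9 members, all 9 aging differences being positive, and limma's voom with weights by tissue called 0 members in both. The aging change of Cryab was 3.97 higher on the log2 scale in RPE/choroid than in retina (SE 1.2, edgeR adjusted p = 0.27). The retina change behind this difference rests on young retina libraries 1 and 2 in Cryab, as given above. In the lens-type members its size depends on them: the median was -10.35 in the main fit and -6.45 with both left out. The interaction was not fitted with both left out. For the 8-AG change of Cryab the difference was -0.21 (SE 1.18, adjusted p = 1.0).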

How the data were processed

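RNA-seq of 9 retina and 9 RPE/choroid libraries was used. The submitters' processing notes name Bowtie2 2.1.0, RSEM 1.2.15, edgeR and the build Rnor_6.0. For retina the authors deposited RSEM expected counts per gene, rounded here, and TMM-normalized signal, which served as an alternative. That table names genes by symbol only. Symbols were therefore paired with the identifiers of the count table through the RPE/choroid gene names and through equal values. Where both gave a name, 90.9% of 15371 were the same. Among the members only Crygd, the member called by adjusted p in retina, was paired through equal values alone. For RPE/choroid the authors deposited raw counts per gene. Their tables of fold changes and p-values were used for gene names only. Fits used edgeR 4.0.16 (filterByExpr, TMM, estimateDisp, glmQLFit with robust=TRUE) in R 4.3.3, with limma 3.58.1 and DESeq2 1.42.0 as alternatives, and were tested on simulated data. SE is the absolute log2 fold change divided by the square root of F. Fold bounds use a floor of 3 counts over a group, and intervals are exact at 95%. Python 3.11.15, pandas 2.3.3, SciPy 1.17.1 and matplotlib 3.10.9 made tables and figures. 

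The members, the gene lists and the tests were chosen with earlier results of these data known. All 10 members are named. Genes of the other lists are named at an adjusted p under 0.05, at most 4 per list and comparison, or as 1 of the 2 most abundant of a list, and the 5 genes of nearest profile were taken per tissue and pattern, with a pseudocount of 0.5. Some genes that these rules name are not reported here. Values of marker genes are given where they move with a member. The lists are other crystallin-named genes, lens structure genes, lens transcription factors, small heat shock proteins, inducible chaperones, Mueller glia genes and gliosis genes. Alternatives were RLE size factors, DESeq2, no filter, a minimum of 10 counts in each library, a joint fit of the 3 groups, the replicate number as a block, robust=FALSE, unrounded counts, limma on the authors' TMM values with a pseudocount of 1, summing libraries that share a number, and leaving out each library. Marker scores as covariates, and leaving out the lens-rich retina libraries together, were added after seeing the data.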

Additional observations from a re-analysis of the deposited data

How the results depend on the processing

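In aged against young retina the number of members with an adjusted p under 0.05 was 1 in edgeR's fit as designed. That number was 10 with DESeq2 and with robust=FALSE, 9 with a replicate block and 8 with the lens structure score. With limma on the authors' values it was 3, with at least 10 counts in every library 0, and with 1 library left out 0 to 9. By fold and P it was 9, then 1 with at least 10 counts in every library and 3 to 10 with 1 library left out. In 8-AG against aged retina the count by fold and P, 0, was 1 with all groups in one fit, 2 with robust=FALSE and 0 to 1 with 1 library left out. In 8-AG against young retina the adjusted count, 1, was 0 with no filter and with at least 10 counts, and 0 to 1 with 1 library left out. By fold and P it was 0 with at least 10 counts, 2 with robust=FALSE and with the lens structure score, and 1 to 3 with 1 library left out. In RPE/choroid the count by fold and P for aged against young, 3, was 6 with all groups in one fit, 1 with libraries sharing a number summed and with the surface epithelium score, 0 with DESeq2, the replicate block, the lens structure score and the muscle score, and 0 to 7 with 1 library left out. For 8-AG against aged it was 7, then 2 with all groups in one fit and with the muscle score, 3 with libraries summed, 0 with the surface epithelium score and 2 to 8 with 1 library left out, and DESeq2 called 3 by adjusted p. For 8-AG against young it was 1, then 0 with the replicate block, libraries summed, the lens structure score and the surface epithelium score, and 0 to 4 with 1 library left out. The cause of these shifts was not tested. The interaction counts were 0 in each alternative run.

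Signs turned for Cryab in aged against young retina (0.40 with the lens structure score, 0.12 without young libraries 1 and 2), in 8-AG against young retina (0.33 with the score, 0.18 without the lens-rich libraries) and in aged against young RPE/choroid (-0.053 without young library 1, -0.056 without young library 3 and up to 0.69 without young library 2). Crybb1 in that comparison ran from -2.43 to 0.62 with 1 library left out, the latter without young library 2, and turned to -0.62 in 8-AG against aged with the surface epithelium score. In 8-AG against young RPE/choroid the replicate block gave Cryaa 0.66, Cryba1 0.63, Cryba2 1.25, Cryba4 1.67, Crybb1 1.09, Crybb2 1.22, Crybb3 1.2 and Crygs 1.35, and the highest and lowest values with 1 library left out were 2.0 and -2.07 for Cryaa, 2.01 and -2.24 for Cryba1, 2.34 and -0.98 for Cryba2, 2.83 and -1.06 for Cryba4, 2.27 and -1.08 for Crybb1, 2.32 and -1.25 for Crybb2, 2.4 and -1.47 for Crybb3, and 2.45 and -1.08 for Crygs, the highest always without young library 2. Without 8-AG library 2, Cryba2 was 0.01, Cryba4 0.03 and Crybb1 0.21. Libraries with the same number share only that number: the correlation of their deviations from the group means ran from -0.577 to 0.648 across genes, so the block was not used. With 3 libraries a group, and a few counts per library for most lens-type members in aged retina, the size of a fold is poorly fixed there.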

Other observations

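Among the other crystallin-named genes, Crym and Cryzl1 did not follow the lens-type members in retina. Of 13 genes in that list, 8 were tested in aged against young retina, 2 of them higher and 6 lower. Their log2 fold changes ran from -9.29 to 1.35. By edgeR's adjusted p 1 rose and 1 fell, beside 7.29% of genes that rose and 7.26% that fell. Crym, a thyroid hormone binding protein that serves as a crystallin in marsupials, was at 209, 192 and 199 CPM in young retina, at 454, 604 and 472 CPM in aged retina and at 514, 461 and 413 CPM in 8-AG retina, with every aged and treated library above every young one. Its log2 fold change was 1.35 (SE 0.11, edgeR adjusted p = 1.9e-04) between aged and young, -0.14 (SE 0.12, adjusted p = 0.996) between 8-AG and aged, and 1.21 (SE 0.09, adjusted p = 5.0e-05) between 8-AG and young retina. The lens-rich libraries did not stand out in Crym. In RPE/choroid Crym ran from 35.7 to 1610 CPM, with a log2 fold change of 2.27 (SE 1.22, edgeR adjusted p = 1.0) between aged and young. Cryzl1, a quinone reductase-like gene and the next most abundant of the list, was at 46.3 to 57.7 CPM over the 9 retina libraries and 41.3 to 57.3 CPM over the 9 RPE/choroid libraries.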
